A study of Mus musculus with 30 samples.

Results

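The genes of DNA replication and S phase were followed in mouse muscle stem cells from the uninjured state through injury and repair. They are 41 genes chosen by name, and each was found once by its symbol among the 55154 gene identifiers common to the 3 deposited count tables. By role they are 4 genes of origin licensing (Orc1, Orc6, Cdc6, Cdt1), the 6 subunits of the Mcm2-7 helicase, 7 genes that activate the helicase (Mcm10, Cdc45, Gins1 to Gins4, Ticrr), 6 subunits of polymerases and primase (Pola1, Pola2, Prim1, Prim2, Pold1, Pole), and 6 genes of the sliding clamp and its loaders (Pcna, Rfc2 to Rfc5, Dscc1). The others are 3 genes of single-strand binding and Okazaki fragment maturation (Rpa2, Fen1, Lig1), 5 of nucleotide supply and uracil removal (Rrm1, Rrm2, Tyms, Tk1, Ung) and 4 of chromatin and histone supply (Chaf1a, Chaf1b, Uhrf1, Slbp).

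A cell prepares to copy its genome by loading the Mcm helicase onto origins in G1, with the help of the origin recognition complex, Cdc6 and Cdt1. At the start of S phase Cdc45 and the GINS complex turn the loaded helicase on, primase and the polymerases follow it, and Pcna, loaded by the Rfc complex, holds the polymerases on DNA. Most of these genes are repressed by E2F and pocket protein complexes in resting cells and transcribed when E2F is released in late G1. Satellite cells, which are the stem cells of muscle, rest outside the cell cycle in G0 and enter it after muscle damage.

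The study asked how the transcriptome of satellite cells changes as they leave quiescence and as muscle regenerates. All cells came from hind limb muscle of C57BL/6 mice, and per the labels the mice were perfused with the fixative paraformaldehyde before the cells were isolated by a sorting scheme. Polyadenylated RNA was sequenced in 30 libraries, 2 for each of 15 groups. Cells of muscle injured by barium chloride, a salt that kills muscle fibres, were taken 0.5, 1, 2, 4, 8, 16, 32 and 60 h later, and 7, 14 and 28 days later, and their baseline is uninjured cells. There are 3 groups of old cells. The oASC cells were taken 2.5 days after the injury, the oFISC cells are labelled as freshly isolated and also carry an injury treatment, so their state is uncertain, and the oQSC cells had no injury and were fixed in place. The source labels of oASC and oFISC do not mention fixation in place, so whether the 3 groups of old cells were handled alike is uncertain. The labels give no ages, so the other groups are called cells not labelled old. The labels do not state whether both libraries of a group are from separate animals. Errors and p-values therefore measure the spread between these libraries, which may be technical.

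Levels are in CPM, a gene's count relative to the library's total after scaling over all 30 libraries, printed for library 1 and then library 2 of a group. Fold changes are log2 values with their standard error (SE) from edgeR's quasi-likelihood test, and a gene was called where its p, adjusted over every gene in the test, was below 0.05. In a bulk sample, more cells with a transcript and more transcript per cell cannot be told apart. All injury times share the uninjured libraries, so their differences from them are not independent. Whether the libraries of 2 groups overlap is given as a description of the values and is no test. The share of all genes without overlap was not computed. Total counts were 13.5 to 36.8 M per library in the time course to 60 h, 9.18 to 13.9 M in regeneration and 21.1 to 57.4 M in old cells. All 41 genes passed the filter on low counts in each table.

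Libraries of some early times stood apart. Pax7, the transcription factor of satellite cell identity, and Myod1, which drives the myogenic programme, gave each group from 0.5 to 4 h 1 library rich in Pax7 and 1 rich in Myod1. At 0.5 h Pax7 was at 781 and 134 CPM and Myod1 at 119 and 1508 CPM, and at 4 h they were at 992 and 69.6 CPM and 88.3 and 2164 CPM. Uninjured cells held 1745 and 1554 CPM of Pax7 and 41.4 and 50.8 CPM of Myod1. The oQSC cells, although labelled as uninjured, held 84.5 and 72.7 CPM of Pax7 and 1069 and 1535 CPM of Myod1, the order seen at 8 h (Pax7 at 55.1 and 35 CPM and Myod1 at 3345 and 3198 CPM). Summed markers of macrophages (8 genes) were at 105 and 509 CPM at 32 h, and the 60 h libraries held 213 and 45.9 CPM, against 5.78 and 4.18 CPM in the uninjured cells, where 3 of the 8 were at 0 in both libraries. Those of pericytes and smooth muscle (6 genes) summed to 481 and 278 CPM at 0.5 h, against 1940 and 1710 CPM in the uninjured cells. They were at 86.2 and 71.8 CPM by 8 h, 65.5 and 94.7 CPM by 16 h, 263 and 265 CPM by 60 h and 412 and 518 CPM by 7 days. Every library of the other 14 groups lay below both uninjured ones in this sum, but the 6 genes did not move together. At 0.5 h Pdgfrb was called higher than in uninjured cells (2.84 ± 0.56) and Notch3 lower (-3.2 ± 0.93). At 8 h Pdgfrb (1.98 ± 0.54) and Rgs5 (2.64 ± 0.69) were higher and Notch3 (-6.85 ± 1.1) and Acta2 (-1.82 ± 0.51) lower. The other genes of the list were not called at these times. Markers of other cells were higher at 0.5 h, namely the fibro-adipogenic genes Pdgfra (7.46 ± 1.38) and Dcn (2.77 ± 0.56) and the neutrophil gene S100a8 (3.91 ± 1.06). The fibre genes Myh4 (8.6 ± 1.56) and Ckm (4.48 ± 0.84) were higher too. Other genes tested from these lists were not called then. Endothelial markers summed to 135 and 95.5 CPM at 0.5 h, against 36 and 71.6 CPM in the uninjured cells. The part of all these markers in the differences from uninjured cells was not tested.

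The strand of counting is not given in the sources used here, and by GENCODE M21 (mm10, the source of the gene coordinates given) exons of 16 of the 41 genes overlap a gene on the opposite strand, over more than 10% of their exonic bases in 7. The overlap covers 84.2% of Fen1 (Tmem258 and a predicted gene), 67.3% of Gins2 (Gse1) and 52.5% of Chaf1a (Ubxn6), so counts of these 3 genes are uncertain. Pcna and Tyms have annotated pseudogenes; these hold few of the reads: Pcna-ps2 held 17 to 542 counts per library in the time course, against 193 to 14611 for Pcna, and Tyms-ps at most 16.

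All 41 genes changed over the 9 groups from uninjured to 60 h by a single F test of all times, while 24.7% of all 22479 genes tested were called. The genes stood low in uninjured cells, at a median of 6.5% of their highest group of the time course, and 30 of them were under 10%. By 0.5 h the median was 9.94%, by 8 h 6.3%, by 16 h 11.3% and by 32 h 80.3%. By the mean of each pair Slbp had its highest level at 1 h, through library 1 alone, 11 genes had it at 32 h and 29 at 60 h. The summed level of the 41 genes was 5348 and 3325 CPM at 32 h, and at 60 h it was 5266 and 5789 CPM, against 374.8 and 352.4 CPM in the uninjured cells.

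**Figure D1:**
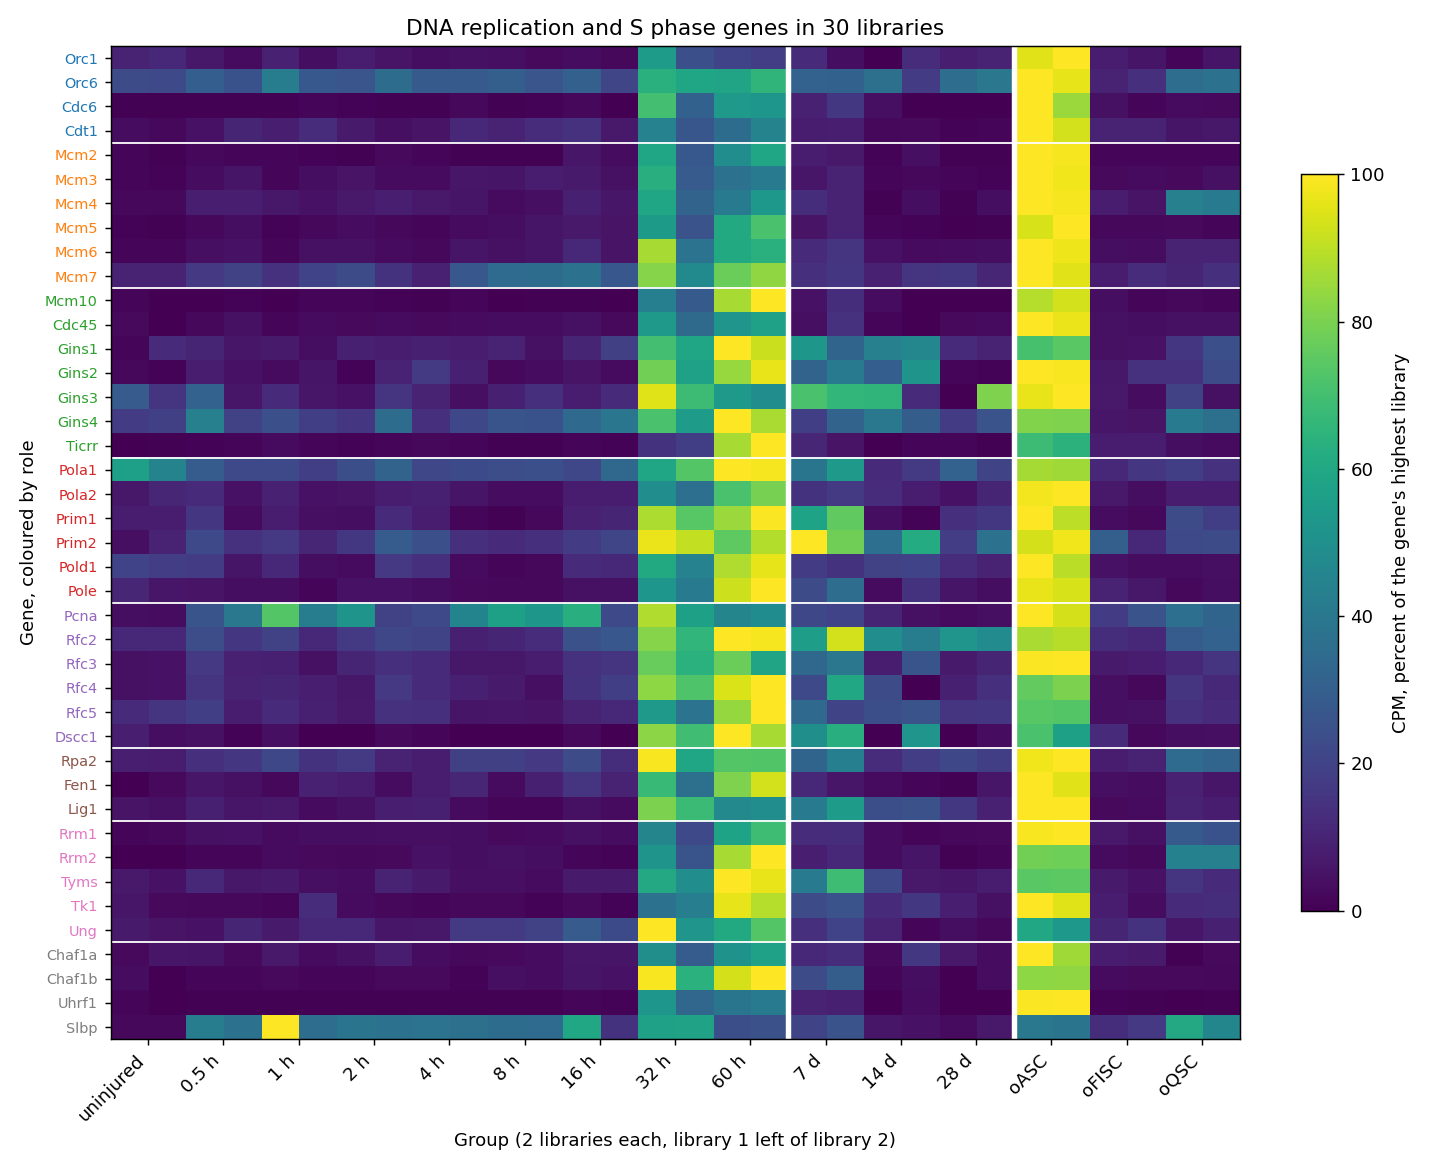
Levels of the 41 DNA replication genes in all 30 libraries, each cell giving the CPM as a percent of that gene's highest library. Rows are genes with labels coloured by role, and columns are libraries in time order, then regeneration, then oASC, oFISC and oQSC. The bright block runs over the 32 h, 60 h and oASC libraries, the uninjured, 14 day and 28 day libraries are dark for most genes, and Slbp and Pcna are brighter from 0.5 to 60 h than in uninjured cells and dark again at 14 and 28 days.

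The promoters of these genes were read because E2F binding words are the textbook mark of S phase genes. A search of 300 bases around the annotated start (250 before and 50 after, RefSeq, build GRCm38.p6) covered 33 of the 41 genes with 38 promoters. The words TTTCCCGC, TTTCGCGC, TTTGCCGC and TTTGGCGC, on either strand, occurred in 13 of the 38 (34.2%), against 2.26% of all 32851 promoters in the table. They were found in 3 licensing genes (Cdc6, Cdt1, Orc1), in Mcm3, Mcm5, Mcm6 and Mcm7, and in Gins3, Pola1, Pold1, Rfc3, Lig1 and Uhrf1. The CCAAT box, on either strand, stood in 60.5% of the genes' promoters, against 37.4% of all. The AP-1 word TGACTCA, with its reverse complement TGAGTCA, was in 0 of the 38, against 5.2% of all promoters. The CRE word TGACGTCA, which is its own reverse complement, was in 2.63%, against 1.79%. Of the 7 promoters printed here, 5 carry an E2F word, while those of Pcna and Slbp carry none in this window. Pcna, Slbp and Mcm5 were all called higher at 0.5 h. The others called then were Rrm2, without an E2F word in this window, and Mcm4, which the search did not cover. Each printed promoter is given 5′ to 3′ on the gene's own strand, with the E2F words in capitals.
Mcm5 promoter (chr8:75109259-75109558, plus strand): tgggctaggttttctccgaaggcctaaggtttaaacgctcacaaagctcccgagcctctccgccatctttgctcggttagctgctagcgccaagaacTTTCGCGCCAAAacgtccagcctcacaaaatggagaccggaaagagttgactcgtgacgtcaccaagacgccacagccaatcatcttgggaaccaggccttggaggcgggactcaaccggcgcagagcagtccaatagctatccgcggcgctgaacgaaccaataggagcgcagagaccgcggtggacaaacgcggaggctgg
Mcm6 promoter (chr1:128359656-128359955, minus strand): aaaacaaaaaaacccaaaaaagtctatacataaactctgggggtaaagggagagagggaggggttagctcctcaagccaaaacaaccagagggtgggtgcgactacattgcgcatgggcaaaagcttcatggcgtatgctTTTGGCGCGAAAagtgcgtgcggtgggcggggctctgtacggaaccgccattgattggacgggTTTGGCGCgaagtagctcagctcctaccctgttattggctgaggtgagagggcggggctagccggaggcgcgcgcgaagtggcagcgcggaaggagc
Cdc6 promoter (chr11:98907901-98908200, plus strand): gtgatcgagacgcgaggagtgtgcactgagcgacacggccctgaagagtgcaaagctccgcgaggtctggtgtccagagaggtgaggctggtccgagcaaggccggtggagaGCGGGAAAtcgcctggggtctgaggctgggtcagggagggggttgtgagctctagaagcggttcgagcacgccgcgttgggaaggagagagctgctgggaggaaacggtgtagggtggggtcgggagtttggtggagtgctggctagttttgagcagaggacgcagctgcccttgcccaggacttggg
Orc1 promoter (chr4:108579204-108579503, plus strand): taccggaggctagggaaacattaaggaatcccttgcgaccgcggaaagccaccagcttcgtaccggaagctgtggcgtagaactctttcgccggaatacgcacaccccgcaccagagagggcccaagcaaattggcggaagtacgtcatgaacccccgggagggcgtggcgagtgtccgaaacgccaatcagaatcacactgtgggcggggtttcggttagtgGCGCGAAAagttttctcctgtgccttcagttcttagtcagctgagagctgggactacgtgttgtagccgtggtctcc
Rfc3 promoter (chr5:151651159-151651458, minus strand): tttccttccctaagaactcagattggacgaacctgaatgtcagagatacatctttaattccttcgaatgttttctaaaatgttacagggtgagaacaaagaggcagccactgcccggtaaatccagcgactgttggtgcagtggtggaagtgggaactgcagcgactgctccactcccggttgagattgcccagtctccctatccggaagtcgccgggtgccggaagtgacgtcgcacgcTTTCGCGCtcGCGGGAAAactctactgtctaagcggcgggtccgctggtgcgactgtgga
Pcna promoter (chr2:132253131-132253430, minus strand): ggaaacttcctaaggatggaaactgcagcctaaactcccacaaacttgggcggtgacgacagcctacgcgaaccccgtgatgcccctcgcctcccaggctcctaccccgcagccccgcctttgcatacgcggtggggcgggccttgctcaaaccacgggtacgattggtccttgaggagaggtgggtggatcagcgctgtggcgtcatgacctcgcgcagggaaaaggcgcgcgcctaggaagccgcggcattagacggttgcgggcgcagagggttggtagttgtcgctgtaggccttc
Slbp promoter (chr5:33652525-33652824, minus strand): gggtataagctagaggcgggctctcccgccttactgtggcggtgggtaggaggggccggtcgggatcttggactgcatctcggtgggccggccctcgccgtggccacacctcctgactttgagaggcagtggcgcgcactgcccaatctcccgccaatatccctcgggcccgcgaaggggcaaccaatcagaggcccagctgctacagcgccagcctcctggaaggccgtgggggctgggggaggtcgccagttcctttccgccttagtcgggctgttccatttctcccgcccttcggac
In Mcm5 the words begin 153 and 149 bases before the start and overlap. In Mcm6 they begin 110, 106 and 47 bases before it, the first pair overlapping, and in Cdc6 a single word begins 138 bases before it. The word of Orc1 begins 27 bases before the start, and those of Rfc3 begin 10 bases before it and at the start base itself. A match describes these letters only and is not a bound site.

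In the first hours a few of the genes were already far above the uninjured level, led by Slbp (chr5:33634952-33652574, minus strand), whose product binds the stem-loop of histone mRNAs. Slbp was at 186 and 164 CPM at 0.5 h, against 8.81 and 10.3 CPM in the uninjured cells, a log2 fold change of 4.15 ± 0.61 (edgeR adjusted p = 0.00318). Its level at 1 h was 443 and 158 CPM (4.94 ± 0.63, edgeR adjusted p = 0.00141). This was its highest mean of the 15 groups, but 1 h library 2 lay below both 32 h libraries (254 and 255 CPM). By 2 h it was 169.6 and 168 CPM, and the 4 h libraries held 168 and 164 CPM. Every early library lay above both uninjured ones, and only the 1 h libraries were far apart from each other. Pcna (chr2:132249162-132253314, minus strand), the sliding clamp, was at 121 and 186 CPM at 0.5 h, against 17.7 and 14.8 CPM in the uninjured cells (3.21 ± 0.63, edgeR adjusted p = 0.00968). At 1, 2 and 4 h its fold changes were 4.03 ± 0.65, 3.39 ± 0.63 and 3.25 ± 0.63, with 341 and 198 CPM, 242 and 91.8 CPM and 102 and 211 CPM. The groups did not overlap at any of these times, although the Pcna libraries of 2 and 4 h differed from each other.

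Rrm2 (chr12:24708241-24714146, plus strand), the regulated subunit of the ribonucleotide reductase that makes deoxynucleotides, was at 13.9 and 16.7 CPM at 0.5 h, against 2.57 and 3.25 CPM in the uninjured cells (2.35 ± 0.40, edgeR adjusted p = 0.00566). By 4 h it was at 42.3 and 34.3 CPM (3.69 ± 0.42, edgeR adjusted p = 0.00117), and its early libraries all lay above the uninjured ones. Mcm4, a helicase subunit, was at 30.4 and 30.01 CPM at 0.5 h, against 7.80 and 7.20 CPM in the uninjured cells (1.97 ± 0.37, edgeR adjusted p = 0.00781), and stayed called at 1, 2 and 4 h. Mcm5 was called at 0.5 h, at 8.58 and 15.7 CPM, against 3.58 and 1.86 CPM in the uninjured cells (2.14 ± 0.60), and at 2 h (2.26 ± 0.60). The other early calls were Cdt1, which loads the helicase, at 1 h (1.94 ± 0.56), Ticrr, a firing factor of very low level, at 1 h (2.51 ± 0.54) and 4 h (2.35 ± 0.54), Prim2, a primase subunit, at 2 h (1.65 ± 0.47), and Gins2 (3.03 ± 0.84) and Mcm3 (2.01 ± 0.59) at 4 h.

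**Figure D2:**
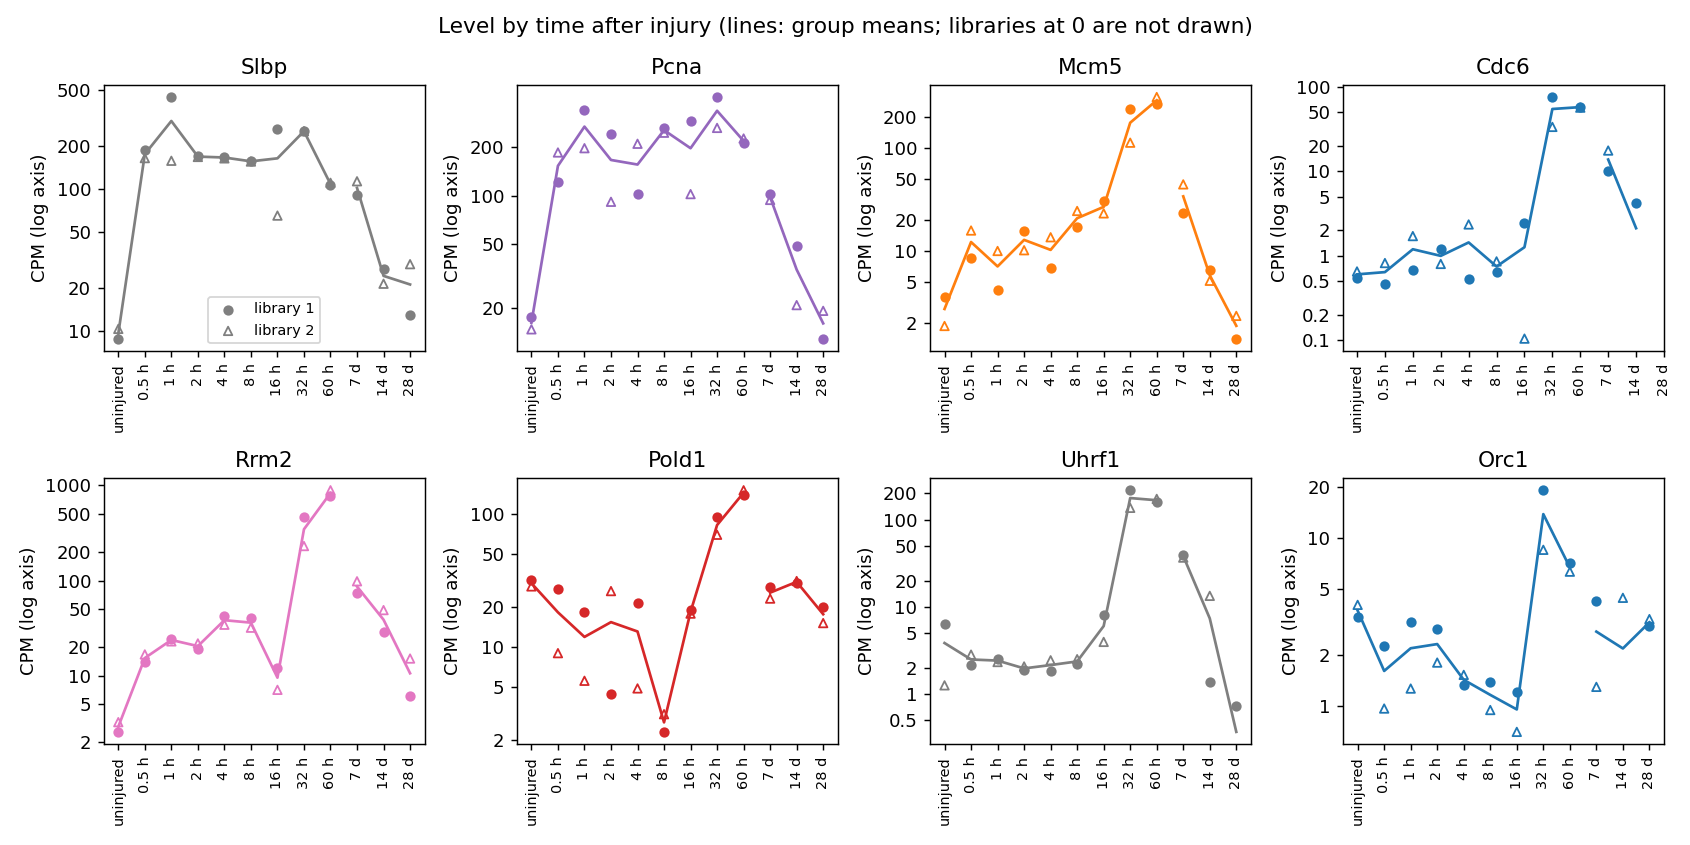
CPM (log axis) of Slbp, Pcna, Mcm5, Cdc6, Rrm2, Pold1, Uhrf1 and Orc1 over the time course, with 1 point per library, the line through the mean of each pair, and time points evenly spaced. Slbp is near 10 CPM in uninjured cells and above 150 CPM in every library from 0.5 to 8 h, whereas Cdc6 stays under 3 CPM to 16 h and lies above 30 CPM at 32 and 60 h.

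Of the polymerase genes, none rose in this window except Prim2. Pola1, the catalytic subunit of polymerase alpha, was at 17.3 and 14.5 CPM at 1 h, against 44.1 and 34.9 CPM in the uninjured cells (-1.34 ± 0.30, edgeR adjusted p = 0.0176), and fell at 4 h as well (-1.22 ± 0.30). Pole, the catalytic subunit of polymerase epsilon, fell at 1 h to 2.78 and 1.09 CPM, against 7.62 and 4.42 CPM in the uninjured cells (-1.66 ± 0.45, edgeR adjusted p = 0.0366). The groups did not overlap for either gene.

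In counts, 5 of the 41 genes were higher at 0.5 h and 0 lower, where 6.88% of all genes were higher and 3.42% lower. At 1 h 6 were higher and 2 lower (6.57% and 3.64% of all genes). The 2 h cells had 6 and 0 (6.32% and 2.99%), and the 4 h cells 7 and 1 (7.18% and 3.8%). The higher genes were 12.2% of the 41 at 0.5 h, 14.6% at 1 and at 2 h and 17.1% at 4 h. Few of the calls stood when any 1 of the 4 libraries compared was left out: Slbp at 0.5 h, Pcna, Rrm2 and Slbp at 1 h, and Rrm2 at 2 and at 4 h. The 5 calls of 0.5 h became 2 without uninjured library 1 and 3 without uninjured library 2, and the 8 of 1 h (10.2% of all genes in either direction) became 4 without any 1 library. The 6 of 2 h became 2 without uninjured library 1, 3 without uninjured library 2 and 3 without 2 h library 1, and the 8 of 4 h became 2, 3, 5 and 2 without uninjured libraries 1 and 2 and 4 h libraries 1 and 2.

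The order of the genes within the early pairs was set beside that of Pax7. Pold1, the catalytic subunit of polymerase delta, stood at 27.4 and 8.96 CPM in the pair taken at 0.5 h and at 18.2 and 5.56 CPM in that of 1 h. The pairs of 2 and 4 h held 4.43 and 26.2 CPM and 21.2 and 4.87 CPM. For Mcm7 the pairs of these times, earliest first, were 78.4 and 90.9, then 66.8 and 94.1, then 109 and 68.6, then 42.4 and 128 CPM. Pold1 was the higher in the library with more Pax7 at each of the 4 times, and Mcm7 the lower. In all, 16 of the 41 genes (39%) followed Pax7 in this way at all 4 times, among them 5 of the 6 polymerase and primase genes and all 4 Rfc genes. The opposite order at all 4 times held for 8 (19.5%), Cdc6, Cdt1, Mcm3, Mcm5, Mcm6, Mcm7, Mcm10 and Ung. Over 15626 genes with a mean of at least 1 CPM the shares were 35.4% and 29.8%, so the first share is near that of all genes and the second below it. An E2F word stood in the promoters of 6 of the 8 and in 4 of the 11 Pax7-following genes with a promoter. Of the genes with neither order, 3 of the 14 with a promoter held one, and of all 33 genes with a promoter 13 did. This split was noticed after the values were seen and was not tested.

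At 8 h, 7 of the 41 genes (17.1%) were higher than in uninjured cells and 4 (9.8%) lower. Of all genes 16.1% were higher and 14% lower, so the first share is near that of all genes and the second below it. The genes' median log2 fold change was 0.31, against 0.00 over all genes. Slbp (4.00 ± 0.61), Pcna (3.95 ± 0.65) and Rrm2 (3.60 ± 0.42) rose, at 157 and 156, 265 and 247 and 40.2 and 31.9 CPM, and they kept their calls without any 1 library. Mcm5 rose to 17.1 and 24.4 CPM, against 3.58 and 1.86 CPM in the uninjured cells (2.92 ± 0.61, edgeR adjusted p = 0.00678), and Mcm3 (2.54 ± 0.60), Cdt1 (2.01 ± 0.56) and Mcm7 (1.85 ± 0.49) rose too. All 4 genes that fell were of the 6 polymerase and primase genes. Pold1 fell to 2.30 and 3.12 CPM, against 31.7 and 28.4 CPM in the uninjured cells (-3.50 ± 0.88, edgeR adjusted p = 0.0138). Pole was at 1.5 and 1.47 CPM at 8 h (-2.04 ± 0.46, edgeR adjusted p = 0.00872), Pola2 at 4.43 and 4.37 CPM, against 8.17 and 13.8 CPM in the uninjured cells (-1.35 ± 0.46), and Pola1 at 18.5 and 19.0 CPM (-1.10 ± 0.30). The 8 h libraries lay below both uninjured ones for each of the 4. Prim1, the catalytic primase subunit, had a fold change of -2.46 ± 0.93 and was not called (edgeR adjusted p = 0.0611). Dscc1, of an alternative clamp loader, was without a count in both 8 h libraries, and its uninjured level was at least 22.6-fold higher, with its 8 h level set to a floor of 3 counts summed over the pair. The 11 calls became 6 without either uninjured library, 5 without 8 h library 1 and 4 without 8 h library 2, and the falls of Pola1 and Pola2 were lost without any 1 library (edgeR adjusted p up to 0.136 and 0.28). The falls of Pold1 and Pole were lost without uninjured library 1 or either 8 h library (up to 0.103 and 0.0745).

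At 16 h all 6 Mcm2-7 genes had risen, with 15 of the 41 genes higher and 1 lower, against 14.2% and 8.5% of all genes. The all-gene split at 16 h was 3186 higher and 1910 lower, and with another scaling (RLE) 2491 and 2307. Mcm5 was at 30.3 and 23.1 CPM, against 3.58 and 1.86 CPM in the uninjured cells (3.32 ± 0.62, edgeR adjusted p = 0.00413). Mcm2 was at 23.3 and 13.2 CPM at 16 h, against 5.60 and 1.58 CPM in the uninjured cells (2.38 ± 0.73, edgeR adjusted p = 0.0347). For both genes the 16 h libraries lay above the uninjured ones. Slbp was at 263 and 64.8 CPM (4.11 ± 0.61) and Pcna at 293 and 102 CPM (3.61 ± 0.64), with library 1 well above library 2 in each; 30 of the 41 genes were higher in 16 h library 1. Of the clamp and loaders 4 of 6 rose, and Ung, the uracil glycosylase, rose to 23.7 and 18.5 CPM, against 5.97 and 4.42 CPM in the uninjured cells (2.04 ± 0.57, edgeR adjusted p = 0.0236).

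None of the 7 helicase activators passed the test at 16 h. Orc1, the largest subunit of the origin recognition complex, fell to 1.21 and 0.703 CPM, against 3.40 and 4.00 CPM in the uninjured cells (-1.94 ± 0.62, edgeR adjusted p = 0.04), with no overlap. Rrm2 was lower than at 8 h, at 12 and 7.10 CPM at 16 h, against 40.2 and 31.9 CPM at 8 h, but this was not called (-1.88 ± 0.39, edgeR adjusted p = 0.145). Between 16 and 8 h 0 of the 41 genes were called, where 0.0089% of all genes were (0.00445% higher and 0.00445% lower). An unadjusted p under 0.05 was seen in 12 of the 41, but the share of all genes at that threshold was not computed. DESeq2 called 4, where it called 453 of all 22479 genes. The 16 calls at 16 h (22.7% of all genes in either direction) became 8 and 6 without uninjured libraries 1 and 2, 4 without 16 h library 1 and 12 without 16 h library 2. Mcm5, Pcna and Slbp kept theirs throughout, while Orc1 lost its call without any 1 library (edgeR adjusted p up to 0.199).

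At 32 h nearly the whole set was up. Of the 41 genes 37 were higher than in uninjured cells and 0 lower, where 14.1% of all genes were higher and 6.44% lower. Their median log2 fold change was 3.71, against 0.25 over all genes, a background that became 0.01 with RLE scaling. The all-gene split at 32 h was 3170 higher and 1447 lower, and with RLE 2471 and 1801. Against 16 h itself 19 were higher and 0 lower, where 0.761% of all genes were higher and 0.0356% lower, with a median of 2.75 against 0.02 over all genes.

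Origin licensing rose in full at 32 h, with 4 of 4 genes called. Cdc6 (chr11:98907801-98923940, plus strand), the ATPase that brings the helicase to origins, was at 75.8 and 33.5 CPM at 32 h, against 0.551 and 0.651 CPM in the uninjured cells (6.5 ± 1.22, edgeR adjusted p = 0.00386). Against 16 h, at 2.42 and 0.104 CPM, its log2 fold change of 5.45 ± 1.13 was the largest of the called genes. Orc1 turned round to 19.2 and 8.49 CPM at 32 h, above its uninjured level (1.91 ± 0.61) and that of 16 h (3.86 ± 0.66). The Cdc6 and Orc1 libraries of 32 h lay above all uninjured and 16 h ones. Cdt1 was at 81.6 and 49.0 CPM at 32 h, against 5.88 and 4.18 CPM in the uninjured cells (3.71 ± 0.60), and Orc6 rose by 1.45 ± 0.30.

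The Mcm2-7 helicase rose in 6 of 6 subunits, with a median of 5.29 on the log2 scale. Mcm5 was at 239 and 112 CPM at 32 h (6.04 ± 0.70 over uninjured cells, edgeR adjusted p = 0.000529), and Mcm2 at 229.6 and 107 CPM (5.59 ± 0.83, edgeR adjusted p = 0.0013). Both 32 h libraries lay far above the uninjured ones, and library 1 was the higher of the pair. Of the helicase activators 6 of 7 rose, among them Mcm10 (5.67 ± 1.59), Ticrr (5.51 ± 0.56), Cdc45 (5.20 ± 1.18) and Gins2, at 49.0 and 35.5 CPM, against 1.38 and 0.604 CPM in the uninjured cells (5.46 ± 0.92). Gins3 was not called (1.90 ± 0.77, edgeR adjusted p = 0.099).

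Of the polymerases and primase 4 of 6 were called. Prim1 was at 62.6 and 52.8 CPM at 32 h, against 5.33 and 5.58 CPM in the uninjured cells (3.40 ± 0.94, edgeR adjusted p = 0.0233), and Pole at 37.4 and 29.7 CPM, against 7.62 and 4.42 CPM in the uninjured cells (2.49 ± 0.46, edgeR adjusted p = 0.00342). The catalytic subunits of polymerases alpha and delta did not pass the test. Pola1 was at 46.0 and 57.4 CPM, against 44.1 and 34.9 CPM in the uninjured cells (0.39 ± 0.30, edgeR adjusted p = 0.37). Pold1 was at 95.0 and 69.5 CPM, against 31.7 and 28.4 CPM in the uninjured cells (1.46 ± 0.81, edgeR adjusted p = 0.214). Pola1 had the highest uninjured level of the set relative to its own peak, 50.8%, and Rrm2 the lowest, 0.351%.

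Of the clamp and loaders 5 of 6 rose, with Pcna at 412 and 264 CPM (4.39 ± 0.66), Rfc4 at 4.06, Rfc3 at 3.94 and Rfc2 at 2.71 on the log2 scale. Dscc1 had a fold change of 3.64 ± 1.73 and was not called (edgeR adjusted p = 0.153). All 3 genes of single-strand binding and Okazaki maturation rose. Fen1, the flap endonuclease, was at 118 and 64.5 CPM at 32 h, against 0 and 4.28 CPM in the uninjured cells (5.35 ± 1.26, edgeR adjusted p = 0.0116), and Lig1, the ligase that seals nicks, was 3.94 ± 0.59.

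Nucleotide supply held the largest change of the set. Rrm2 was at 461 and 230.2 CPM at 32 h, against 2.57 and 3.25 CPM in the uninjured cells (6.89 ± 0.49, edgeR adjusted p = 7.89e-05). Its partner subunit Rrm1 was at 221 and 108 CPM, against 9.09 and 10.1 CPM in the uninjured cells (4.11 ± 0.40, edgeR adjusted p = 0.000245). No library of 32 h came near an uninjured one for either gene. Tyms, which makes thymidylate, was at 109.8 and 88.9 CPM, against 12.4 and 8.97 CPM in the uninjured cells (3.22 ± 0.51), and Ung, at 82.3 and 43.1 CPM, had here its highest level of the 15 groups (3.61 ± 0.60).

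The chromatin genes rose in 4 of 4. Uhrf1 (chr17:56303321-56323486, plus strand), which brings the maintenance methyltransferase to new DNA, was at 218 and 137 CPM at 32 h, against 6.43 and 1.25 CPM in the uninjured cells (5.56 ± 0.68, edgeR adjusted p = 0.000665), and against 16 h, at 8.07 and 3.96 CPM, it rose by 4.88 ± 0.65. Its 32 h libraries lay above every earlier one. Chaf1b and Chaf1a, subunits of the histone chaperone that follows the fork, rose by 5.59 ± 0.87 and 3.18 ± 0.56 over uninjured cells. Slbp, at 254 and 255 CPM, was above its uninjured level (4.73 ± 0.63) and not called against 16 h (0.63 ± 0.54, edgeR adjusted p = 0.867).

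**Figure D3:**
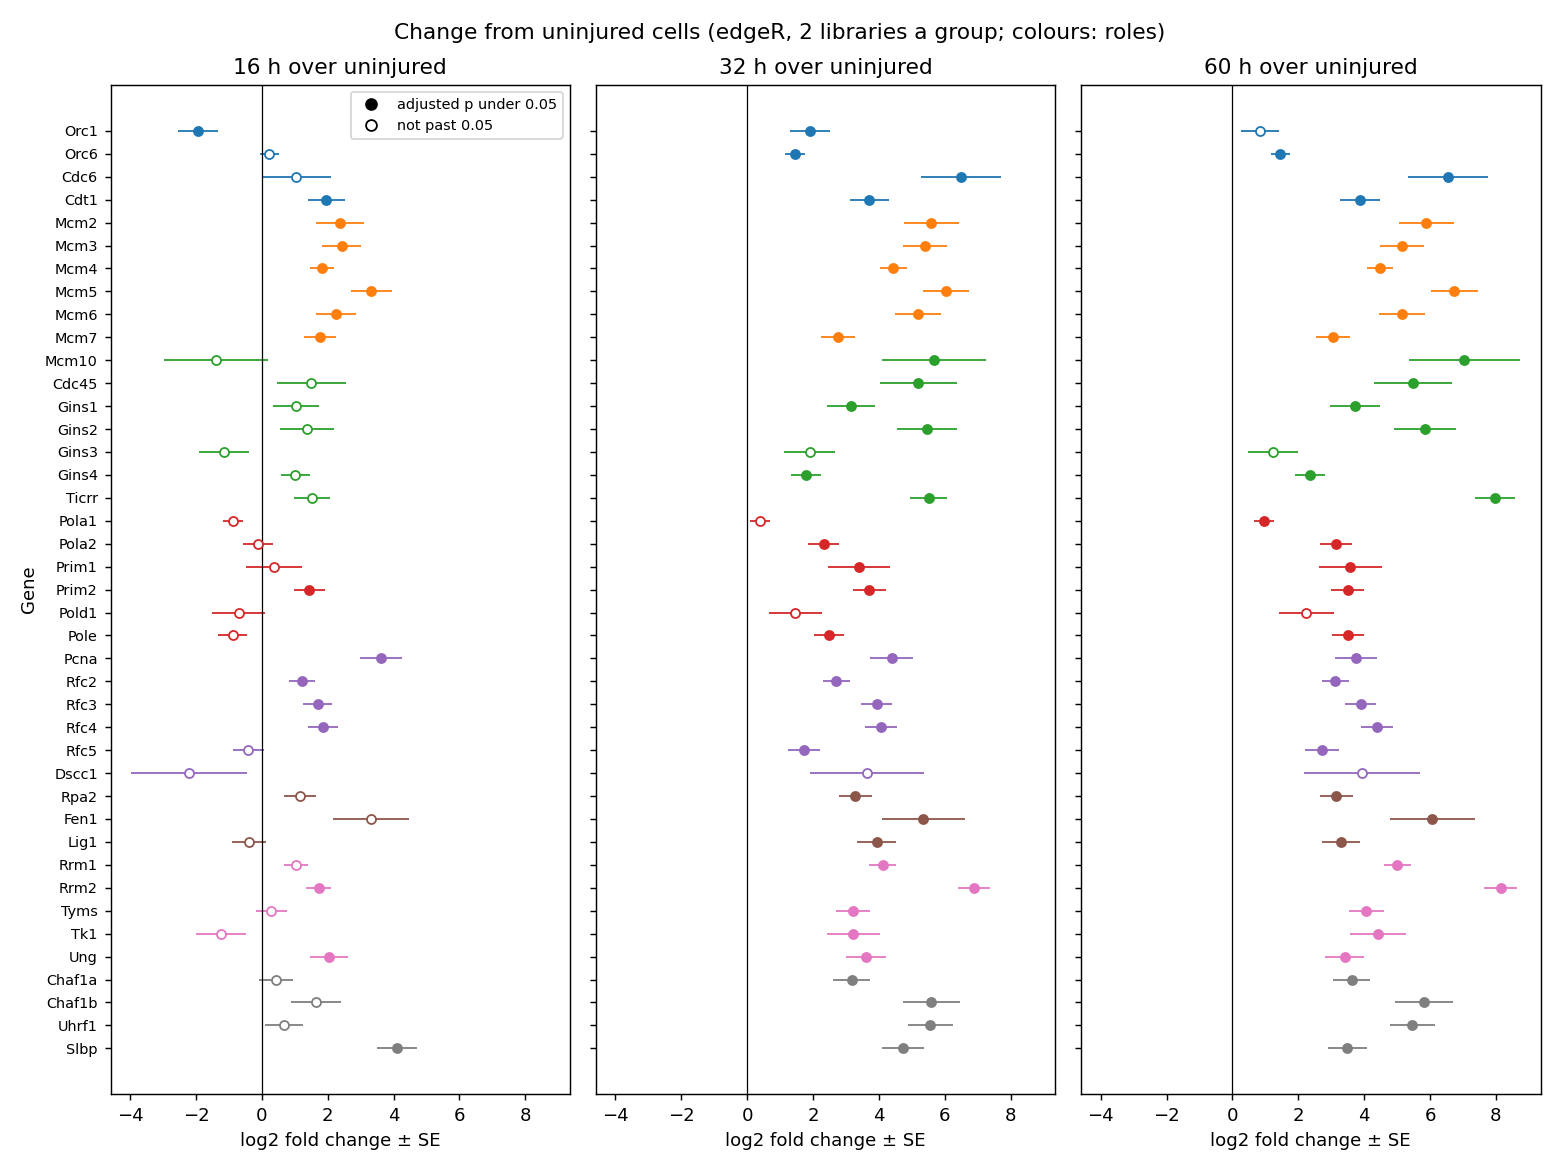
Log2 fold change over uninjured cells at 16, 32 and 60 h for each of the 41 genes by role, with bars for 1 SE and filled points for an edgeR adjusted p under 0.05. At 32 h 37 points are filled and lie between 1.45 and 6.89, and at 16 h those filled are the Mcm2-7 subunits and 10 others, of which Orc1 alone is below 0.

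The 2 libraries of 32 h were not alike: 37 of the 41 genes were higher in library 1, with Myod1 at 1320 and 415 CPM and macrophage markers at 105 and 509 CPM; the part of these differences in the result was not tested. Leaving out 1 library left 29 to 37 calls against uninjured cells, 27 of them in every case, and Orc1 (edgeR adjusted p up to 0.337), Prim1 (0.147) and Mcm10 (0.172) were lost without either uninjured library or 32 h library 1, and Fen1 without 32 h library 1 (0.0572). Against 16 h the 19 calls became 3 and 1 without 16 h libraries 1 and 2, and 7 and 9 without 32 h libraries 1 and 2; Rrm2 alone was called in every case, Uhrf1 was lost without either 16 h library (up to 0.138), and Cdc6 without 16 h library 2 or either 32 h library (up to 0.242).

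At 60 h the set stayed up, with 37 of the 41 genes higher than in uninjured cells and 0 lower, where 15.5% of all genes were higher and 12.8% lower. The median log2 fold change was 3.87, against 0.00 over all genes. Rrm2 was at 771 and 887 CPM at 60 h (8.14 ± 0.51 over uninjured cells, edgeR adjusted p = 1e-05) and Mcm5 at 267 and 312 CPM (6.74 ± 0.72, edgeR adjusted p = 0.000137). Ticrr, which links the S phase kinases to origin firing, was at 42.6 and 49.0 CPM at 60 h, against 0.0918 and 0.232 CPM in the uninjured cells (7.98 ± 0.61, edgeR adjusted p = 4.42e-05). In all 3 genes the 60 h libraries lay close together and far above the uninjured pair. The markers of muscle fibres (7 genes) summed to 478 and 448 CPM at 60 h, against 24.8 and 14.7 CPM in the uninjured cells. Acta1 (3.63 ± 0.99), Tnnt3 (4.54 ± 1.18), Ttn (4.88 ± 0.63) and Mylpf (4.54 ± 1.06) were called higher, and Myh4, Myh1 and Ckm were not called. The part of these markers in the result was not tested. Mcm10, which helps the helicase start, was at 71.5 and 82.2 CPM, against 1.01 and 0.232 CPM in the uninjured cells (7.04 ± 1.68, edgeR adjusted p = 0.00866), a call lost without uninjured library 2 (0.0814).

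Polymerases and primase reached 5 of 6 calls at 60 h. Pola1 was now called, at 78.1 and 77.2 CPM, against 44.1 and 34.9 CPM in the uninjured cells (0.97 ± 0.30, edgeR adjusted p = 0.0306), but not when any 1 library was left out (up to 0.198). Pold1 was at 138 and 150.1 CPM, against 31.7 and 28.4 CPM in the uninjured cells (2.25 ± 0.83, edgeR adjusted p = 0.0597), which did not pass the test. Pola2 (3.14 ± 0.48), Prim1 (3.58 ± 0.95), Prim2 (3.50 ± 0.50) and Pole (3.51 ± 0.48) rose. Orc1, at 7.06 and 6.30 CPM, was no longer called (0.84 ± 0.59, edgeR adjusted p = 0.297), while Cdc6 (6.55 ± 1.22) and Cdt1 (3.87 ± 0.60) were. Gins3 (1.22 ± 0.76) and Dscc1 (3.93 ± 1.76) were the others not called.

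Between 60 and 32 h Ticrr was the single gene of the 41 called, higher at 60 h by 2.47 ± 0.45 (edgeR adjusted p = 0.0119), where 1.04% of all genes were higher and 2.65% lower. It was at 42.6 and 49.0 CPM at 60 h, against 7.24 and 9.17 CPM at 32 h, without overlap. Slbp had the lowest fold change between these times (-1.25 ± 0.54, edgeR adjusted p = 0.241), at 106 and 110.2 CPM at 60 h, against 254 and 255 CPM at 32 h, and Orc1 the next (-1.07 ± 0.59); neither was called. Ticrr lost its call when any 1 of the 4 libraries was left out (edgeR adjusted p up to 0.104).

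Other genes of the pathway, which are not among the 41, were counted from a list of 50. At 32 h 40 were higher and 0 lower than in uninjured cells and at 60 h 39 and 0, with Hells, a chromatin remodeller (4.81 ± 0.40 at 32 h and 4.03 ± 0.39 at 60 h), Asf1b, a histone chaperone (5.69 ± 0.64 and 6.43 ± 0.66), Tipin, of the fork protection complex (3.01 ± 0.30 and 2.86 ± 0.29), and Wdhd1, which couples helicase and polymerase alpha (3.84 ± 0.53 and 4.09 ± 0.53), having the smallest adjusted p. From 0.5 to 4 h 7 or 8 of the 50 were higher and 1 lower, with the small accessory polymerase subunits Pold4 (1.82 ± 0.34 at 0.5 h) and Pole4 (2.69 ± 0.53) and Tipin (1.38 ± 0.28) higher and the deoxycytidine kinase gene Dck lower (-1.84 ± 0.38). At 16 h 17 were higher and 1 lower, Dck being the lower one.

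Of 17 upstream regulators, 8 were higher and 0 lower at 32 h, and 11 higher and 1 lower at 60 h. Cyclin A2 (Ccna2, 5.01 ± 0.50), cyclin E2 (Ccne2, 3.98 ± 0.72) and E2f1 (3.03 ± 0.54) rose at 32 h, E2f8 rose at 60 h (6.79 ± 0.89) and the inhibitor gene Cdkn1b fell there (-1.44 ± 0.39). The inhibitor gene Cdkn1a was higher than in uninjured cells already at 0.5 h (5.30 ± 1.11). Of 12 mitosis genes, 2 were higher and 1 lower at 16 h, where 14.2% of all genes were higher and 8.5% lower. At 32 h 11 of them were higher and at 60 h 12, where the shares of all genes were 14.1% and 15.5%.

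In regenerating muscle the genes were intermediate at 7 days and low again by 28 days. Their summed level was 1402 and 1688 CPM at 7 days, 665.2 and 688 CPM at 14 days and 482.4 and 518.7 CPM at 28 days. At 7 days 25 of the 41 genes were higher than in uninjured cells and 0 lower, where 5.84% of all genes were higher and 5.35% lower, and the median log2 fold change was 2.77. Summed markers of muscle fibres (7 genes) stood at 444 and 288 CPM at 7 days, against 24.8 and 14.7 CPM in the uninjured cells. Ttn alone of them was called (4.69 ± 0.53). Markers of fibro-adipogenic cells (6 genes) summed to 1470 and 1280 CPM at 7 days, against 809 and 594 CPM in the uninjured cells. Of these Col1a1 alone was called (2.81 ± 0.69), while Dcn (-0.79 ± 0.55) and Ly6a (-1.05 ± 0.97) had fold changes below 0. The part of either list in the result was not tested. These libraries come from different tables, so table and time cannot be told apart. Rrm2 was at 74.8 and 98.2 CPM at 7 days, against 2.57 and 3.25 CPM in the uninjured cells (4.88 ± 0.47, edgeR adjusted p = 1.58e-06), and Gins2, of the GINS complex, at 19.8 and 25.7 CPM, against 1.38 and 0.604 CPM in the uninjured cells (4.57 ± 0.80, edgeR adjusted p = 0.000783). Cdc6 was at 9.95 and 17.6 CPM, against 0.551 and 0.651 CPM in the uninjured cells (4.49 ± 1.25, edgeR adjusted p = 0.0232). All 7 day libraries lay above the uninjured ones in these 3 genes. Slbp (3.40 ± 0.54), Mcm5 (3.66 ± 0.54) and Tyms (3.23 ± 0.55) rose, while Pola1 (-0.12 ± 0.34), Pold1 (-0.24 ± 0.66) and Orc1 (-0.42 ± 0.98) were not called. The 25 calls became 14 to 19 without 1 library, 12 of them held in every case, and Cdc6 was lost without any 1 of the 4 (edgeR adjusted p up to 0.195). The count was 14 without uninjured library 2.

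Against 60 h, which is in another table than 7 days, 21 of the 41 genes were lower at 7 days and 0 higher, where 8.86% of all genes were lower. Here as well table and time cannot be told apart. The fall took in 6 of 6 Mcm2-7 genes, 4 of 6 polymerase and primase genes and 4 of 5 nucleotide genes, but 1 of 6 clamp and loader genes. Ticrr was at 5.34 and 2.53 CPM at 7 days, against 42.6 and 49.0 CPM at 60 h (-3.54 ± 0.68, edgeR adjusted p = 0.00111), Fen1 at 20.3 and 10.5 CPM, against 140.5 and 163 CPM at 60 h (-3.30 ± 1.05, edgeR adjusted p = 0.0344), and the fold change of Rrm2 was -3.26 ± 0.43 (edgeR adjusted p = 3.11e-05). None of these groups overlapped. Prim2, at 46.9 and 36.8 CPM at 7 days, against 35.2 and 41.6 CPM at 60 h (0.12 ± 0.49, edgeR adjusted p = 1), Rfc2 (-0.41 ± 0.36) and Slbp (-0.09 ± 0.49) were not called. The 21 calls became 12 without 60 h library 2, 8 without 7 day library 1 and 11 without 7 day library 2; Fen1 was lost without any 1 of the 4 (edgeR adjusted p up to 0.224), and Ticrr and Rrm2 held.

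Between 14 and 7 days 0 of the 41 genes were called, where 0.0531% of all genes were (0.0472% higher and 0.0059% lower). An unadjusted p under 0.05 was seen in 15 of the 41, again without a share of all genes to set beside it. DESeq2 called 9, where it called 605 of all 16954 genes. Without 14 day library 1 there were 7 calls, and without library 2 there was 1. The libraries of 14 days differed, as Mcm2 (3.11 and 16.0 CPM), Chaf1a (4.39 and 26.3 CPM) and Rfc4 (17.0 and 0 CPM) show. Between 28 and 7 days 1 of the 41, Gins2, was called, where 0.212% of all genes were lower and 0.0826% higher. It was at 1.07 and 0.548 CPM at 28 days, against 19.8 and 25.7 CPM at 7 days (-4.66 ± 0.65, edgeR adjusted p = 0.0475), without overlap, and lost its call without any 1 library (up to 0.399). The median log2 fold change of the 41 was −1.93, against 0.00 over all genes. DESeq2 called 16 of them, where it called 1213 of all 16954 genes. Cdc6 and Mcm10 had no count in either 28 day library and were at least 136-fold and 71.5-fold higher at 7 days, with their 28 day level set to the same floor.

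By 28 days few genes were called against uninjured cells, with 3 of the 41 higher and 1 lower, where 2.29% of all genes were higher and 4.2% lower. These groups too come from different tables, so table and time cannot be told apart. Rfc2, a clamp loader subunit, was at 61.6 and 57.0 CPM at 28 days, against 13.6 and 13 CPM in the uninjured cells (2.16 ± 0.38, edgeR adjusted p = 0.00182), and Prim2 at 8.54 and 17.6 CPM, against 1.93 and 4.74 CPM in the uninjured cells (1.95 ± 0.52, edgeR adjusted p = 0.0279). Rrm2 was at 6.07 and 15.2 CPM, against 2.57 and 3.25 CPM in the uninjured cells (1.86 ± 0.43, edgeR adjusted p = 0.012). The groups did not overlap in these genes. Rfc2 had been at 66.1 and 110.1 CPM at 7 days and 57.9 and 49.8 CPM at 14 days. Uhrf1 fell to 0.734 and 0 CPM at 28 days, against 6.43 and 1.25 CPM in the uninjured cells (-3.32 ± 0.99, edgeR adjusted p = 0.0467). Rfc2 kept its call without any 1 library; Prim2 and Uhrf1 lost theirs without uninjured library 1 or 28 day library 2 (up to 0.288 and 0.488), and Rrm2 without either uninjured library or 28 day library 2 (up to 0.235). The 4 calls became 2 without uninjured library 1.

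In old cells nearly the whole set was higher in oASC than in oQSC cells. Injury and any difference of fixation cannot be told apart in this comparison. At 2.5 days after injury 40 of the 41 genes were higher in oASC than in oQSC cells and 0 lower, where 19% of all genes were higher and 21.3% lower, 40.3% in all. The median log2 fold change was 3, against −0.33 over all genes. Uhrf1 was at 413 and 415 CPM in oASC cells, against 0.756 and 2.12 CPM in oQSC cells (8.15 ± 0.48, edgeR adjusted p = 1.07e-05). Mcm2 was at 388 and 384 CPM, against 5.22 and 7.24 CPM in oQSC cells (5.95 ± 0.26, edgeR adjusted p = 6.16e-06), and Chaf1a at 163 and 140.3 CPM, against 0.92 and 4.08 CPM in oQSC cells (5.91 ± 0.57, edgeR adjusted p = 9.49e-05). The libraries of oASC cells differed little from each other and lay far above the oQSC ones. Licensing (5 ± 0.37 for Cdc6, 4.74 ± 0.50 for Orc1) and the polymerases (4.99 ± 0.34 for Pole, 4.67 ± 0.27 for Pold1) rose in full.

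Rrm2 and Slbp stood out from the others, and both were high in oQSC cells too. Rrm2 was at 697 and 692 CPM in oASC cells, against 390.4 and 386 CPM in oQSC cells, the smallest called rise (0.83 ± 0.20, edgeR adjusted p = 0.0109), and lost its call without any 1 library (up to 0.0774). Slbp was at 176 and 169.7 CPM in oASC cells, against 268 and 204 CPM in oQSC cells (-0.46 ± 0.23, edgeR adjusted p = 0.144). Of the 50 other pathway genes 42 were higher in oASC cells and 3 lower, with Hells (5.61 ± 0.25), Dut, the dUTPase (4.17 ± 0.20), Exo1, an exonuclease (5.51 ± 0.32), and Clspn, a checkpoint mediator (4.53 ± 0.30), having the smallest adjusted p. Pold4, Pole4 and Mcmbp were the lower ones.

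The oFISC cells lay below oQSC cells for most genes that were called. Here the isolation, any difference of fixation and the injury treatment on the oFISC label cannot be told apart. In all, 22 of the 41 were lower and 3 higher, where 22.6% of all genes were lower and 19.3% higher, and the median log2 fold change was −1.07, against 0.52 over all genes (0.81 with RLE scaling). The all-gene split was 5804 higher and 6805 lower, and with RLE 7480 and 5697. Rrm2 was at 25.5 and 20.3 CPM in oFISC cells, against 390.4 and 386 CPM in oQSC cells (-4.48 ± 0.23, edgeR adjusted p = 9.89e-05), Prim1 at 2.39 and 1.48 CPM, against 16.5 and 13.1 CPM in oQSC cells (-3.37 ± 0.29, edgeR adjusted p = 0.000112), and Gins4 at 3.55 and 3.18 CPM, against 24.5 and 22.3 CPM in oQSC cells (-3.19 ± 0.22, edgeR adjusted p = 9.89e-05). No oFISC library reached an oQSC one in these genes. Mcm4 (-3.08 ± 0.25), Rrm1 (-2.61 ± 0.24), Slbp (-2.23 ± 0.24) and Pcna (-1.07 ± 0.25) fell as well.

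Chaf1a, Pole and Ticrr went the other way. Chaf1a was at 13.3 and 11.5 CPM in oFISC cells, against 0.92 and 4.08 CPM in oQSC cells (1.91 ± 0.51, edgeR adjusted p = 0.0185), Pole at 6.71 and 4.48 CPM, against 1.48 and 2.77 CPM in oQSC cells (0.99 ± 0.32, edgeR adjusted p = 0.0381), and Ticrr at 4.01 and 3.83 CPM, against 1.77 and 1.34 CPM in oQSC cells (0.94 ± 0.27, edgeR adjusted p = 0.0235). The groups did not overlap, yet each of the 3 calls was lost when 1 library was left out, Chaf1a without either oFISC library (edgeR adjusted p up to 0.0887), Pole without oQSC library 1 or oFISC library 1 (up to 0.204) and Ticrr without oQSC library 2 or oFISC library 1 (up to 0.103). Of the 50 other pathway genes 32 were lower in oFISC cells and 1 higher, led by Asf1b (-3.53 ± 0.24), Dut (-2.52 ± 0.21), Dtymk (-2.52 ± 0.21) and Rnaseh2a (-2.68 ± 0.24). In oASC cells all 41 genes were higher than in oFISC cells, where 27.3% of all genes were higher and 39.7% lower, 67% in all, from Slbp (1.77 ± 0.24) to Mcm5 (5.80 ± 0.26), Mcm2 (6.62 ± 0.27) and Uhrf1 (7.26 ± 0.46); the median of all genes was −1.05 (−1.31 with RLE).

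**Figure D4:**
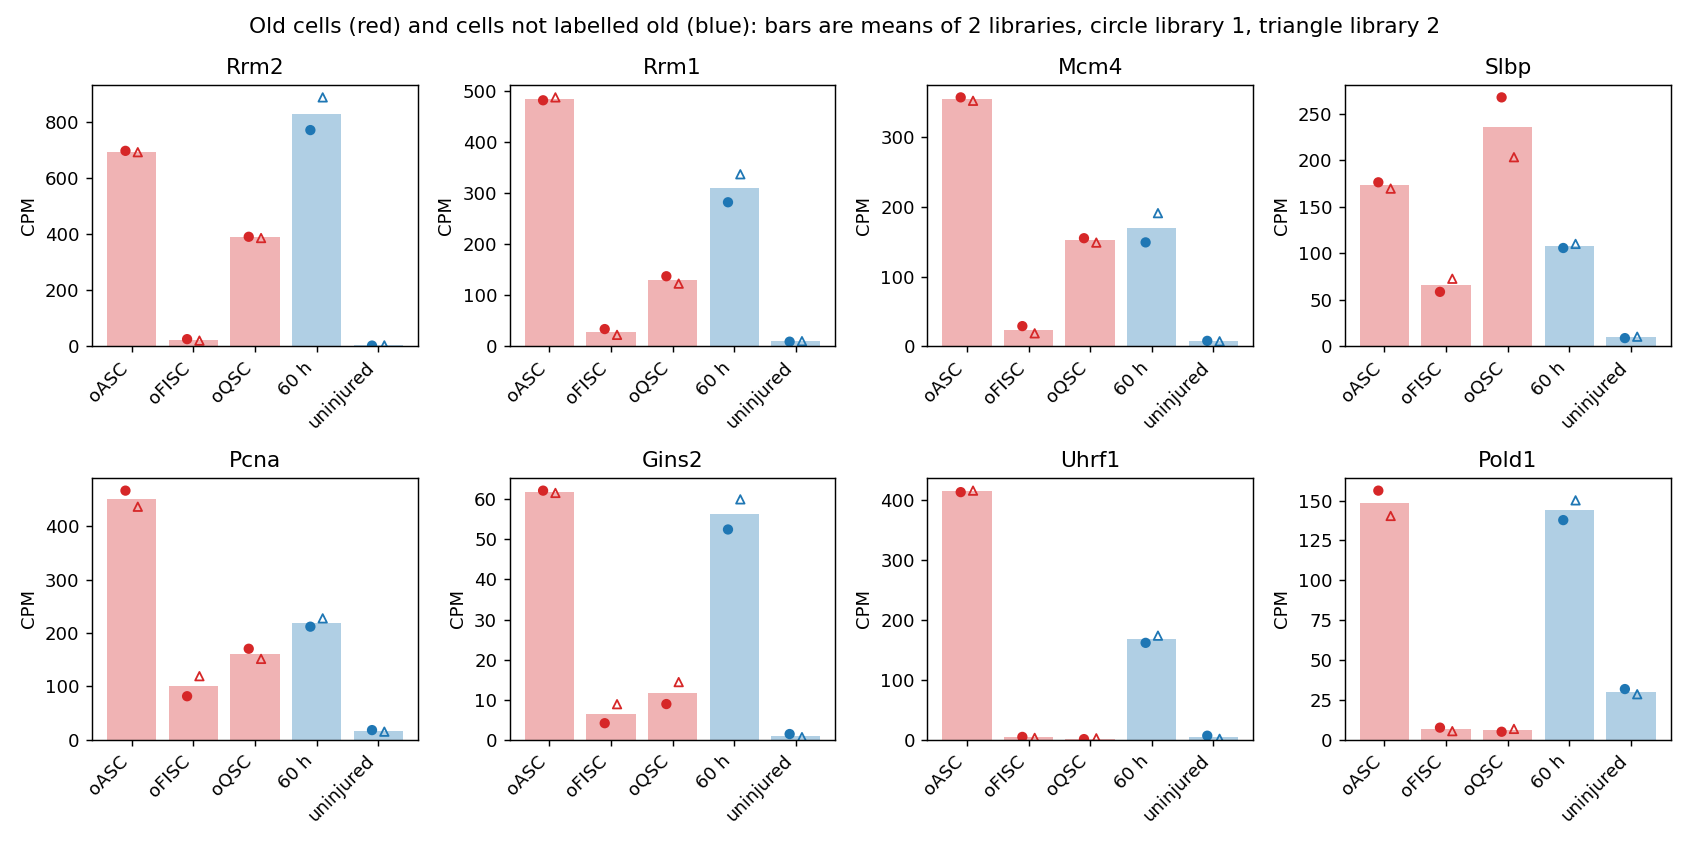
CPM of Rrm2, Rrm1, Mcm4, Slbp, Pcna, Gins2, Uhrf1 and Pold1 in oASC, oFISC, oQSC, 60 h and uninjured cells. Bars are means of 2 libraries, circles library 1 and triangles library 2. Rrm2 stands at 390 and 386 CPM in oQSC cells against 2.57 and 3.25 CPM in uninjured cells, while Uhrf1 is under 3 CPM in oQSC cells and above 400 CPM in oASC cells.

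The oQSC cells differed from the other uninjured cells in a subset of the genes. In all, 14 of the 41 were higher in oQSC cells and 2 lower, where 12.3% of all genes were higher and 9.31% lower; the median of all genes was 0.49 (0.36 with RLE). Age, table and any difference of handling cannot be told apart here. Rrm2 was at 390.4 and 386 CPM in oQSC cells, against 2.57 and 3.25 CPM in the uninjured cells (7.05 ± 0.52, edgeR adjusted p = 2.1e-07). Slbp was at 268 and 204 CPM, against 8.81 and 10.3 CPM in the uninjured cells (4.62 ± 0.57, edgeR adjusted p = 9.42e-06), and Mcm4 at 155 and 149 CPM, against 7.80 and 7.20 CPM in the uninjured cells (4.34 ± 0.65, edgeR adjusted p = 7.17e-05). In these genes the oQSC libraries lay many times above the uninjured ones. Rrm1, the partner of Rrm2, was at 137 and 123 CPM, against 9.09 and 10.1 CPM in the uninjured cells (3.76 ± 0.40, edgeR adjusted p = 2.1e-06), Pcna rose by 3.31 ± 0.56 and Gins2 by 3.60 ± 0.77.

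Other S phase genes stayed low in oQSC cells. Uhrf1 was at 0.756 and 2.12 CPM, against 6.43 and 1.25 CPM in the uninjured cells (-1.38 ± 0.83, edgeR adjusted p = 0.228), Mcm2 at 5.22 and 7.24 CPM (0.83 ± 0.68, edgeR adjusted p = 0.368) and Cdc6 at 3.25 and 2.95 CPM (2.34 ± 1.18, edgeR adjusted p = 0.158), none of them called. Pold1 fell to 4.89 and 6.67 CPM, against 31.7 and 28.4 CPM in the uninjured cells (-2.38 ± 0.70, edgeR adjusted p = 0.018), and Pola1 to 14.5 and 11.3 CPM, against 44.1 and 34.9 CPM in the uninjured cells (-1.62 ± 0.34, edgeR adjusted p = 0.00175), with no overlap in either. Beside this, Cdkn1a was at 1498 and 1319 CPM in oQSC cells, against 11.7 and 6.64 CPM in the uninjured cells. The macrophage sum was 159 and 128 CPM in oQSC cells and 5.78 and 4.18 CPM in the uninjured cells. Genes of other cell types were called too. Of the fibre genes Acta1 (4.22 ± 1.17), Myh4 (8.19 ± 1.98), Ckm (4.39 ± 1.05), Tnnt3 (4.12 ± 1.19) and Mylpf (3.29 ± 1.04) were higher. Myh1 and Ttn were not called. Of the fibro-adipogenic genes Pdgfra (9.87 ± 1.58), Dcn (5.36 ± 0.64) and Lum (7.68 ± 1.73) were higher and Col3a1 lower (-2.27 ± 0.47). Col1a1 and Ly6a were not called. The part of Cdkn1a and of these markers in the result was not tested. Of the 50 other pathway genes 15 were higher and 2 lower, with Pold4 (4.20 ± 0.38), Pole4 (3.44 ± 0.50) and Tipin (1.68 ± 0.27) higher and Dck (-2.04 ± 0.38) lower. The call of Pold1 was lost without uninjured library 1 or either oQSC library (up to 0.151), and 9 of the 16 calls, Rrm2, Slbp, Mcm4, Rrm1, Pcna, Gins2 and Pola1 among them, held without any 1 library. The 16 calls became 11 to 14.

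The injured groups were set side by side, as 60 h and 2.5 days are the same interval. They come from different tables, so table and group cannot be told apart. Between oASC and 60 h cells 0 of the 41 genes were called by edgeR and 0 by DESeq2. Of all genes edgeR called 2.2% and DESeq2 1928 of 28823. By edgeR 4 of the 41 had an unadjusted p under 0.05, and the share of all genes at that threshold was not computed. The summed level was 7646 and 7490 CPM in oASC cells, against 5266 and 5789 CPM at 60 h. Orc1 had the largest fold change (2.35 ± 1.00, edgeR adjusted p = 0.27), at 33.4 and 35 CPM in oASC cells, against 7.06 and 6.30 CPM at 60 h, without overlap. When only the groups compared were fitted, with their own spread, 28 were called, 18 higher and 10 lower. The share of all genes called in that fit was not computed, so the 28 cannot be set against it. That fit also has its own filter and scaling, and the cause of the change in count was not tested.

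The response to injury differed between the cells in 6 of the 41 genes, by a test of the difference itself. The log2 fold change of oASC over oQSC cells was below that of 60 h over uninjured cells in Rrm2 (a difference of -7.30 ± 0.63, edgeR adjusted p = 3.35e-06), Slbp (-3.94 ± 0.72, edgeR adjusted p = 0.00205), Ticrr (-3.60 ± 0.99, edgeR adjusted p = 0.0301), Gins2 (-3.46 ± 1.00, edgeR adjusted p = 0.0383), Mcm4 (-3.28 ± 0.83, edgeR adjusted p = 0.0186) and Rrm1 (-3.11 ± 0.52, edgeR adjusted p = 0.00113). It was larger in 0 genes, where 3.99% of all genes were lower and 3.29% higher. All 6 were also higher in oQSC than in uninjured cells, a comparison that uses the same libraries. Orc1 (3.90 ± 1.41, edgeR adjusted p = 0.1) and Uhrf1 (2.68 ± 1.13, edgeR adjusted p = 0.169) had the highest differences in the other direction and were not called. Without 60 h library 2, either oASC library or either oQSC library 3 calls were left; Rrm1, Rrm2 and Slbp held without any 1 library, while Ticrr, Gins2 and Mcm4 did not (edgeR adjusted p up to 0.153, 0.185 and 0.0988).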

How the data were processed

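The authors deposited whole-number counts per gene in 3 tables: the time course to 60 h (18 libraries), regeneration (6) and old cells (6). Per the submitters' processing notes, Trimmomatic 0.36, HISAT2 2.1.0, SAMtools 1.3 and StringTie 1.3.3 were used with mm10; the counter, its strand setting and the annotation used were not given in the sources used here. Per the labels' protocols, cDNA was made with SMART-Seq v4 and libraries with Tn5. The labels mention no molecular identifiers, so amplified copies count too, and floors cover counting error only. Depth was 9.18 to 57.4 M counts per library.

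Counts were fitted with edgeR 4.0.16 (R 4.3.3, limma 3.58.1): filterByExpr (minimum count 10, minimum total 15), TMM scaling, the quasi-likelihood F test and Benjamini-Hochberg adjustment over all genes of a comparison, threshold 0.05. The 4 fits held the 18 libraries of the time course (22479 genes), the regeneration libraries (16954), those of old cells (30099) and, for comparisons across them, all 30 libraries (28823 genes of 55154 identifiers matched without version). Groups of a fit share its spread, so a library left alone in its group is assumed to vary like the others. The SE of a log2 fold change is its absolute value over the square root of F. Tests were checked on simulated data: large changes were mostly recovered, moderate ones mostly missed in the time course and in regeneration, and false calls ran above the nominal share in the oASC and oQSC comparison and in that of 28 and 7 days. A group with no count was given a floor of 3 counts over its 2 libraries.

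The genes, gene lists and promoter words were chosen with earlier results of these data known. Values per library are printed for a panel of 14 genes, for the 3 called genes with the largest rise and fall of each comparison and for those called against the majority; of the other pathway genes the 4 with the smallest adjusted p are named. Other genes are named to complete a role or to show a split between libraries, after their values were seen. Alternatives were no filter, RLE scaling, other sets of libraries in the fit, DESeq2 1.42.0, each library left out in turn, and a block for the replicate number. Samples were grouped by their GEO labels. No 2 libraries of a group held the same counts.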

Additional observations from a re-analysis of the deposited data

Results flagged for a closer look

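In 6 of the 41 genes the response to injury differed between old cells and those not labelled old, by a test of the difference itself in the fit of all 30 libraries (edgeR, adjusted over 28823 genes). The difference, the log2 fold change of oASC over oQSC cells minus that of 60 h over uninjured cells, was −7.3 for Rrm2, −3.94 for Slbp, −3.6 for Ticrr, −3.46 for Gins2, −3.28 for Mcm4 and −3.11 for Rrm1. Rrm2 stood at 697 and 692 CPM in oASC cells, against 771 and 887 CPM at 60 h. Without injury it stood at 390.4 and 386 CPM in oQSC cells, against 2.57 and 3.25 CPM in the uninjured cells. Slbp stood at 268 and 204 CPM in oQSC cells, against 8.81 and 10.3 CPM in the uninjured cells, and Ticrr at 1.77 and 1.34 CPM, against 0.0918 and 0.232 CPM in the uninjured cells. The oQSC cells also held little Pax7 and much Myod1, at 84.5 and 72.7 CPM and 1069 and 1535 CPM, against 1745 and 1554 CPM and 41.4 and 50.8 CPM in the uninjured cells. Age, the table the libraries belong to and handling, such as the fixation in place that the source labels give for oQSC but not for oASC cells, cannot be told apart in this comparison.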

How the results depend on the processing

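With 2 libraries per group the precision is low, and calls near the threshold depend on single libraries. No named call changed its direction under any alternative: of 327 called values, 311 kept their call with RLE scaling, 309 without the filter, 324 with DESeq2 and 306 with the replicate block, 68 of 72 with only the compared groups in the fit, 121 of 121 in a fit without the 0.5 to 4 h libraries, and 969 of 1332 with 1 library left out. The numbers of called genes among the 41 that moved by more than 1.5 times are given here, and the cause was not tested. DESeq2 called 11 for 0.5 h, 10 for 2 h, 14 for 4 h and 18 for 8 h against uninjured cells, 4 for 16 against 8 h, 33 for 32 against 16 h, 3 for 60 against 32 h, 9 for 14 and 16 for 28 against 7 days, 9 for 28 days against uninjured cells, and 12 for the difference of responses. Over all genes it called 4810, 4588, 5145 and 9310 of 22479 at 0.5, 2, 4 and 8 h. Between later times it called 453 for 16 against 8 h, 684 for 32 against 16 h and 2495 for 60 against 32 h. For 14 and 28 against 7 days it called 605 and 1213 of 16954. Of 28823 genes it called 3981 for 28 days against uninjured cells and 4161 for the difference. Without the filter there were 5 at 1 h, 2 for 16 against 8 h, 29 for 32 against 16 h, 5 for 14 and 15 for 28 against 7 days, and 11 for the difference. Over all genes this setting called 2916 of 37011 at 1 h, 88 for 16 against 8 h and 412 for 32 against 16 h. It called 188 and 683 of 29885 for 14 and 28 against 7 days, and 2519 of 51565 for the difference. RLE scaling gave 0 for 28 against 7 days, where it called 49 of all 16954 genes. Without the 0.5 to 4 h libraries there were 21 at 8 h, 7 for 16 against 8 h, 34 for 32 against 16 h and 5 for 60 against 32 h. With only the compared groups in the fit there were 1 for 28 days against uninjured cells, 32 for 7 days against 60 h, 28 for oASC against 60 h and 24 for the difference. For fits on other sets of libraries, and with 1 library left out, the share of all genes called was not computed.

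Leaving out 1 library gave, for 0.5 h, 2 to 6 calls, for 1 h 4, for 2 h 2 to 5, for 4 h 2 to 5, for 8 h 4 to 6, for 16 h 4 to 12, for 32 h 29 to 37 and for 60 h 34 to 36, 37 to 41 for any change, 0 for 16 against 8 h, 1 to 9 for 32 against 16 h, and 0 for 60 against 32 h. It gave 0 to 7 for 14 and 0 for 28 against 7 days, 39 for oASC against oQSC, 23 to 25 for oFISC against oQSC, 41 for oASC against oFISC, 14 to 19 for 7 days and 2 to 4 for 28 days against uninjured cells, 8 to 14 for 7 days against 60 h, 11 to 14 for oQSC against uninjured cells, 0 for oASC against 60 h, and 3 to 5 for the difference.

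The replicate numbers did not pair the libraries: deviations of same-numbered libraries correlated at −0.671 to 0.614 over 36 pairs of groups in the time course, over 0.1 in 6 of them. With the replicate number as a block, 10 genes were called for 32 against 16 h and 0 for 28 against 7 days, and no other count moved by more than 1.5 times.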
